A study of Gallus gallus with 6 samples.

Results

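The mitochondrial ribosomal protein genes were described in 2 skeletal muscles of the chicken (Gallus gallus), the soleus, a leg muscle, and the pectoralis major, the breast muscle. The genes were taken by name, as every gene of the deposited table whose symbol reads MRPL or MRPS followed by a number. This gave 71 of 18239 genes, of which 45 carry the name of the large ribosomal subunit (MRPL) and 26 the name of the small subunit (MRPS). The rule used names alone, but the set was chosen with earlier results of these data known.

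All 6 libraries came from broilers aged 180 days with no treatment named in the labels, 3 from soleus and 3 from pectoralis major, and the tissue of both body sides was collected at slaughter and frozen. Each library is total RNA of whole muscle, so fewer cells of a type and less RNA per cell cannot be told apart. The labels number the libraries 1 to 3 in each muscle and do not say whether these are separate birds, so each p-value speaks only to how much these particular samples vary, and that variation could be technical. The series describes the fibre type make-up of these muscles as far apart, and the comparison asks how their transcripts differ.

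The mitochondrial ribosome translates the 13 proteins that mitochondrial DNA encodes, all of them parts of the respiratory chain or the ATP synthase. Its RNAs are made inside the mitochondrion, while all of its proteins are encoded in the nucleus, made in the cytosol and imported, so that the organelle's ribosome depends on both genomes. In mammals, where its structure is known best, it holds proteins with a counterpart in the bacterial ribosome and others found only in mitochondria. Roles given below were established mostly in mammals. Muscles rich in slow, oxidative fibres are known to hold more mitochondria than fast, glycolytic ones.

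Levels are in FPKM, fragments scaled to gene length and to the library's total, which allows levels of different genes to be set side by side. The 3 soleus libraries held 38534335 to 39079981 fragments each, and the 3 of pectoralis major 36309597 to 37123092. The markers fixed for slow fibres summed to 9373 to 12738 FPKM in soleus and 0.682 to 4.82 FPKM in pectoralis major, where MYL2 was listed at 0 in all 3 libraries. Fast fibre markers summed to 10317 to 13170 FPKM in soleus and 39799 to 44532 FPKM in pectoralis major. Adipocyte markers were higher in soleus for 4 of 4 genes, with sums of 267 to 319 against 64.8 to 77.8 FPKM. Endothelial markers were higher for 4 of 4 genes, with sums of 77.7 to 88.4 against 34.1 to 44.0 FPKM. Leukocyte markers were likewise higher for 4 of 4, with sums of 54.5 to 66.3 against 22.4 to 31.3 FPKM. Among all tested genes, 40.0% were higher. With median-ratio scaling, described below, the endothelial CDH5 and the leukocyte PTPRC did not pass (limma, adjusted p = 0.0690 and 0.114). As deposited, the markers of all these cell types therefore moved with the muscle in every comparison below. The part of these cell types in the results was not tested.

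Mitochondrial ribosomal protein genes were more often lower than higher in soleus, in a comparison in which most other genes that differed were higher. Of the 71 genes, 21 (29.6%) were lower in soleus and 8 (11.3%) were higher, and 42 did not pass the test (limma on log2(FPKM + 1), Benjamini-Hochberg adjusted over all tested genes, threshold 0.05). Among all 9616 genes tested, 17.4% were lower and 40.0% were higher. The values of the 3 soleus libraries lay wholly below those of pectoralis major for 25 of the 71 genes and wholly above for 10, where the background over all tested genes was 19.9% below and 45.0% above. All 71 passed the filter on low values, which asked for 3 or more libraries with 1 FPKM or more.

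The differences were small. Measured as log2(FPKM + 1), where differences of weakly expressed genes come out too small, they ran from -1.05 to 1.06, and 5 of the 71 genes differed at least 2-fold between the muscle means. Their median difference, soleus minus pectoralis major, was -0.19 (quartiles -0.45 and 0.12) with the values as deposited and 0.03 with library totals that leave out the mitochondrially encoded genes. Over all tested genes these medians were 0.26 and 0.45. Relative to the median of all tested genes, the median of the mitochondrial ribosomal protein genes thus lay at -0.45 as deposited and at -0.41 without the mitochondrially encoded genes. It lay at -0.51 with median-ratio scaling, which fixes the typical gene across libraries, and at -0.16 with quantile normalization. As deposited, 57 of the 71 genes lay below the median of all tested genes, and under these other scalings 49 to 61 did.

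The counts of calls moved with the scale as well. With totals that leave out the mitochondrially encoded genes, 16 of the 71 were higher and 12 lower, where 52.3% of all tested genes were higher and 11.98% lower (64.3% in either direction). With median-ratio scaling, 1 was higher and 44 lower, against 21.1% and 29.5% of all tested genes (50.6% in either direction). With quantile normalization, 9 were higher and 22 lower, against 23.3% and 23.8% (47.1% in either direction). With the library number as a block, 10 were higher and 24 lower, against 43.8% and 19.5% (63.2% in either direction, and 57.3% without the block). Under each of these settings the share of higher genes among the 71 was below that among all tested genes, and the share of lower genes was above it.

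**Figure D1:**
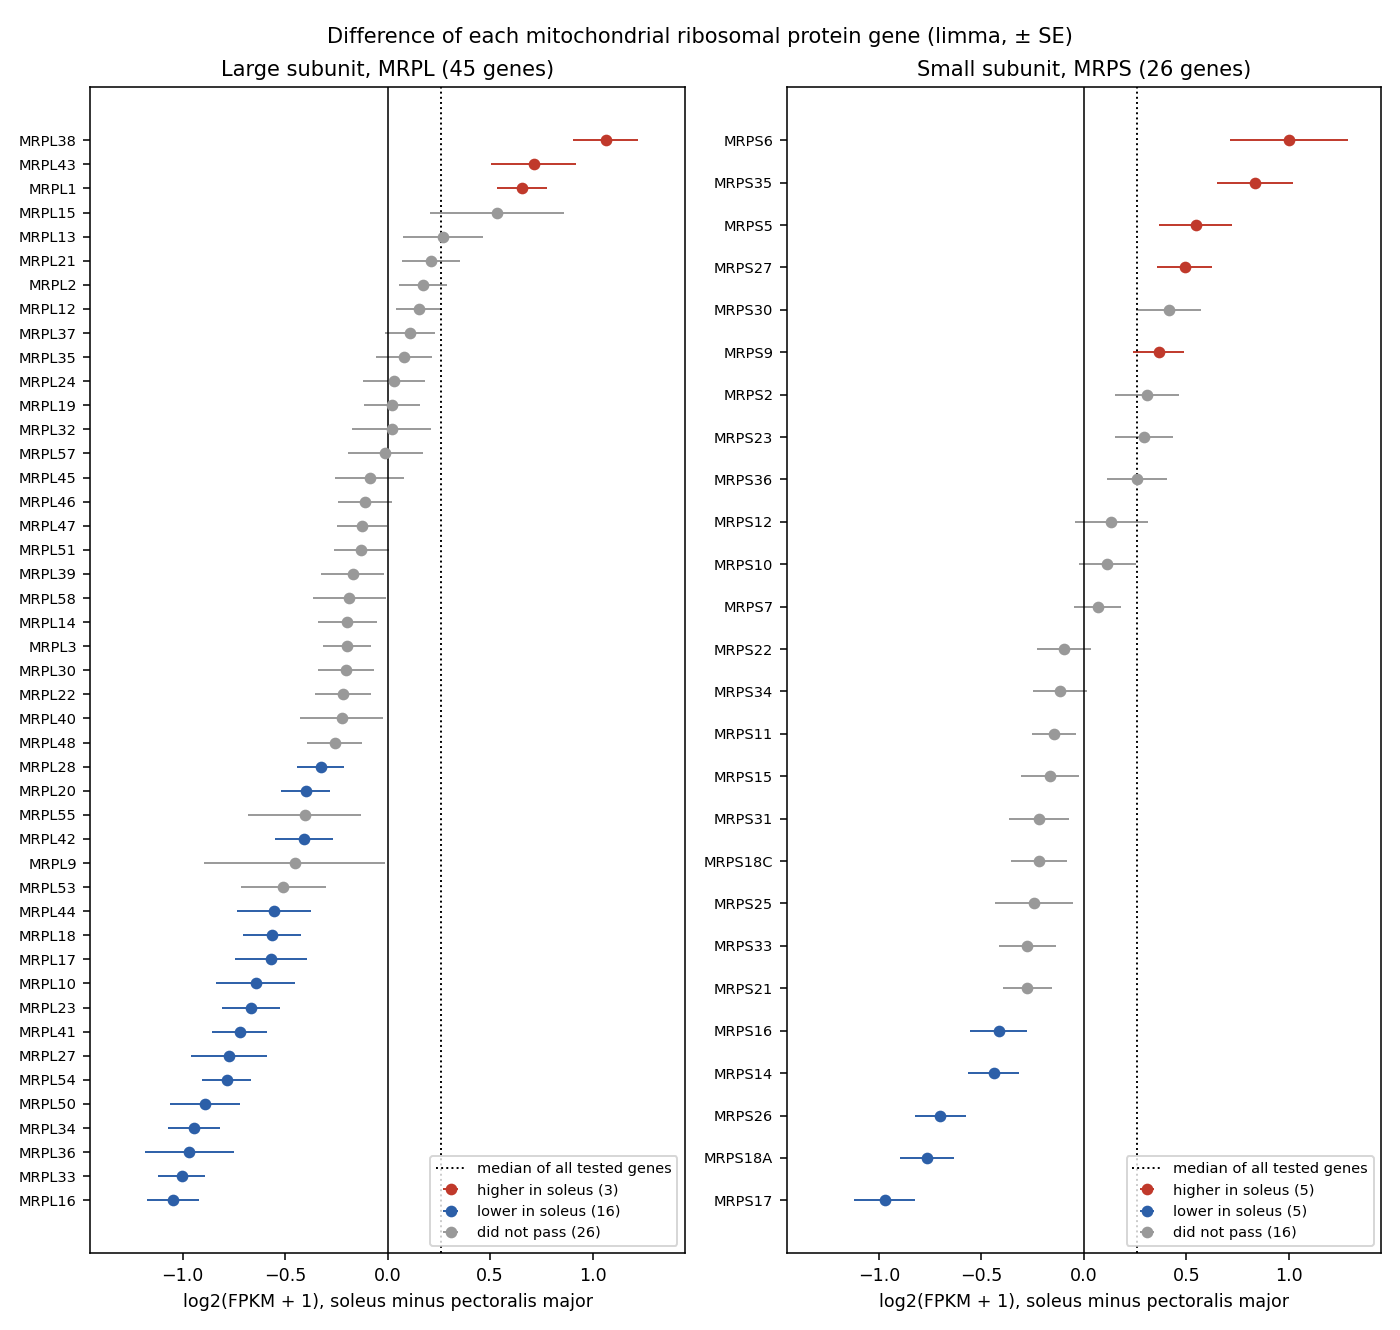
Difference of each of the 71 mitochondrial ribosomal protein genes between muscles in log2(FPKM + 1), soleus minus pectoralis major, with its standard error from limma (3 libraries per muscle), large subunit names on the left and small subunit names on the right. Red marks genes called higher in soleus (3 large, 5 small), blue those called lower (16 large, 5 small) and grey the rest, and most points lie left of the dotted median of all tested genes at 0.26.

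The summed level shows how far the scale enters. The 71 genes summed to 3259, 3673 and 3263 FPKM in soleus libraries 1 to 3 and to 3912, 4180 and 4072 FPKM in pectoralis major libraries 1 to 3. The soleus sums were all below those of pectoralis major, with means of 3399 ± 238 and 4055 ± 135 FPKM (SD, n = 3 each). Mitochondrially encoded genes, which share the library total, took 31.4 to 38.0% of all FPKM in soleus and 13.1 to 15.8% in pectoralis major. Of the fragments that make up the library totals, they took 19.6 to 23.7% in soleus and 7.03 to 8.66% in pectoralis major. Of the FPKM outside those genes, the mitochondrial ribosomal protein genes held 0.773, 0.809 and 0.802% in soleus and 0.778, 0.826 and 0.819% in pectoralis major. On that scale, a share of FPKM and not of fragments, the muscles overlapped.

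Both muscles ranked the genes alike. Mean FPKM in soleus and in pectoralis major correlated across the 71 genes with r = 0.93 on the log2 scale and rho = 0.93, a description over genes that share libraries and are not independent replicates. In level, 6 genes averaged under 10 FPKM over the 6 libraries, 57 averaged 10 to 100 FPKM and 8 averaged 100 FPKM or more. The highest mean was 113.8 times the lowest, and the median gene stood at 32.7 FPKM. Between 23 and 12559 fragments lay behind each value, with a median of 1592.5. The spread between libraries of a muscle, as a coefficient of variation, had a median over genes of 9.06% in soleus and 12.9% in pectoralis major.

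At the top of the range stood MRPL2, the counterpart of a bacterial protein that lies near the site of peptide bond formation. Its level was 317, 337 and 339 FPKM in soleus and 295, 266 and 321 FPKM in pectoralis major, with overlap between muscles. The difference of 0.17 ± 0.12 (SE) did not pass the test (limma, adjusted p = 0.236), and it took the opposite sign with median-ratio scaling (-0.21) and with quantile normalization (-0.02). MRPL2 overlaps KLC2, a kinesin light chain gene that was lower in soleus (-0.82, limma, adjusted p = 0.00125). MRPL54 and MRPL34 followed in level, and both were lower in soleus. At the other end, MRPL9, MRPS18C and MRPS30 averaged 2.75, 4.71 and 7.39 FPKM over the 6 libraries. MRPS18C, 1 of 3 mitochondrial relatives of bacterial S18 in mammals, stood at 4.44, 3.92 and 4.44 FPKM in soleus and at 4.35, 5.77 and 5.36 FPKM in pectoralis major. These values overlapped, and its difference of -0.22 ± 0.14 did not pass (limma, adjusted p = 0.199).

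Among large subunit genes, 16 of 45 (35.6%, against 17.4% of all tested genes) were lower in soleus and 3 (6.67%, against 40.0%) were higher. Their median difference was -0.20 as deposited, 0.00 with totals without the mitochondrially encoded genes and -0.58 with median-ratio scaling. Relative to all tested genes, these medians were -0.46, -0.45 and -0.53. With quantile normalization the relative median was -0.18, with 35 of the 45 genes below the median of all tested genes. Summed, the large subunit genes reached 2373 ± 179 FPKM in soleus and 2913 ± 107 FPKM in pectoralis major (SD, n = 3 each), without overlap.

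MRPL16, whose bacterial counterpart lies at the A site of the ribosome, showed the lowest difference of all 71 genes. It stood at 48.1, 51.9 and 47.5 FPKM in soleus and at 109.6, 89.6 and 110.1 FPKM in pectoralis major. Every soleus library was near the level of the others and far below every pectoralis major library. The difference was -1.05 ± 0.13 (limma, adjusted p = 0.000295), a 2.10-fold lower mean. MRPL33, the counterpart of bacterial L33, had 88.2, 97.5 and 97.1 FPKM in soleus against 178, 200.1 and 192 FPKM in pectoralis major. Its difference was -1.004 ± 0.11 (limma, adjusted p = 0.000211), again without overlap. MRPL33 overlaps RBKS, a ribokinase gene, in the gene table, and RBKS was itself lower in soleus, by -0.74 (limma, adjusted p = 0.0108). Since it is not given whether the counting used strand, reads of overlapping genes may have been mixed.

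MRPL34 and MRPL36, counterparts of very small bacterial proteins, were lower as well. MRPL34 stood at 133, 143 and 116 FPKM in soleus and at 272, 252 and 233 FPKM in pectoralis major, a difference of -0.94 ± 0.13 (limma, adjusted p = 0.000492). MRPL36, at a far lower level, had 11.1, 9.29 and 6.72 FPKM in soleus and 23.4, 18.5 and 14.1 FPKM in pectoralis major. The muscles did not overlap in either gene, and for MRPL36 the level of library 3 was the lowest of both muscles. Its difference was -0.97 ± 0.22 (limma, adjusted p = 0.00573). MRPL27, the counterpart of bacterial L27, whose end reaches the site of peptide bond formation, had 31.3, 47.9 and 33.2 FPKM against 55.9, 74.3 and 61.7 FPKM. Library 2 was the highest in both muscles, and the difference was -0.77 ± 0.19 (limma, adjusted p = 0.00751).

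Proteins without a bacterial counterpart were among them too. MRPL54 had 169.5, 170.2 and 168 FPKM in soleus and 273, 278 and 329 FPKM in pectoralis major. The soleus libraries were nearly equal, and all lay below pectoralis major, with a difference of -0.79 ± 0.12 (limma, adjusted p = 0.000893). MRPL50 had 21.5, 20.1 and 17.9 FPKM in soleus and 33.0, 48.3 and 33.2 FPKM in pectoralis major. Library 2 of pectoralis major stood above the other 2, and the difference was -0.89 ± 0.17 (limma, adjusted p = 0.00267).

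A further 9 large subunit genes passed the test with smaller differences, MRPL41 at -0.72, MRPL23 at -0.67, MRPL10 at -0.64, MRPL17 at -0.57, MRPL18 at -0.57, MRPL44 at -0.56, MRPL42 at -0.41, MRPL20 at -0.40 and MRPL28 at -0.33. Among their products, that of MRPL10 anchors the stalk that binds translation factors, and MRPL44 carries a ribonuclease III-like fold. MRPL44, with 63.1, 48.4 and 54.7 FPKM in soleus and 91.8, 62.9 and 93.4 FPKM in pectoralis major, was the only called gene of the 71 whose muscles overlapped. MRPL41, MRPL23 and MRPL18 kept their call whichever library was left out.

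MRPL28 and MRPL42 were the called genes nearest the threshold. MRPL28 had 34.6, 38.4 and 36.2 FPKM in soleus against 46.5, 46.5 and 44.7 FPKM in pectoralis major, and MRPL42 had 21.4, 23.0 and 21.6 FPKM against 26.9, 35.4 and 26.9 FPKM. In both genes the muscles stood apart by little, with adjusted p-values of 0.0349 and 0.0362 (limma). MRPL28 lost its call without any 1 of the 6 libraries (limma, adjusted p = 0.0535 to 0.105). MRPL42 lost its call without soleus library 1, 2 or 3 or pectoralis major library 2, and without that last library its difference was -0.28 (limma, adjusted p = 0.0989). On the other side, MRPL53 had 11.98, 14.2 and 14.7 FPKM in soleus and 14.6, 27.0 and 19.5 FPKM in pectoralis major. These overlapped, and its difference of -0.51 ± 0.21 did not pass (limma, adjusted p = 0.0628). With the library number as a block, it did (limma, adjusted p = 0.0133).

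Calls of the other lower genes also rested on single libraries in places. MRPL10 did not pass without soleus library 2, pectoralis major library 1 or pectoralis major library 3, with an adjusted p up to 0.0712 (limma). MRPL17 did not pass without soleus library 1 or 3 or pectoralis major library 2 or 3, with an adjusted p up to 0.0754 (limma). MRPL20 did not pass without soleus library 1 or pectoralis major library 3, with an adjusted p up to 0.0714 (limma). MRPL44 did not pass without soleus library 2 or 3 or pectoralis major library 1 or 3, with an adjusted p up to 0.0921 (limma). The values themselves moved by less than 1.5 times.

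Only 3 large subunit genes were higher in soleus. MRPL38, a mitochondria-specific protein of the central protuberance, had 20.0, 25.5 and 17.7 FPKM in soleus and 10.2, 9.59 and 8.61 FPKM in pectoralis major. Each soleus library was well above each pectoralis major library. Its difference of 1.06 ± 0.16 (limma, adjusted p = 0.000770), a 2.23-fold higher mean, was the highest of all 71 genes. MRPL38 was also the only higher gene that passed under every setting planned, median-ratio scaling included (0.70, limma, adjusted p = 0.00941).

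MRPL1, the counterpart of the protein at the tip of the stalk beside the E site, had 30.5, 34.0 and 32.1 FPKM in soleus and 21.6, 20.4 and 18.3 FPKM in pectoralis major. The muscles did not overlap, and the difference was 0.65 ± 0.12 (limma, adjusted p = 0.00235). MRPL43, a mitochondria-specific protein, had 91.3, 135 and 87.9 FPKM in soleus and 55.4, 79.1 and 55.3 FPKM in pectoralis major. Library 2 was the highest of each muscle, and the difference was 0.71 ± 0.21 (limma, adjusted p = 0.0174). MRPL43 did not pass without soleus library 2, pectoralis major library 1 or pectoralis major library 3 (limma, adjusted p = 0.0523 to 0.0567). With median-ratio scaling, neither passed, at 0.28 for MRPL1 (limma, adjusted p = 0.123) and 0.33 for MRPL43 (limma, adjusted p = 0.234). MRPL43 overlaps SEMA4G, at 0.184 ± 0.0782 FPKM in soleus and 0.166 ± 0.0277 FPKM in pectoralis major (SD, n = 3 each). MRPL1 overlaps CNOT6L, which stood at 3.35 ± 0.407 FPKM in soleus and 3.40 ± 0.252 FPKM in pectoralis major (SD, n = 3 each).

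**Figure D2:**
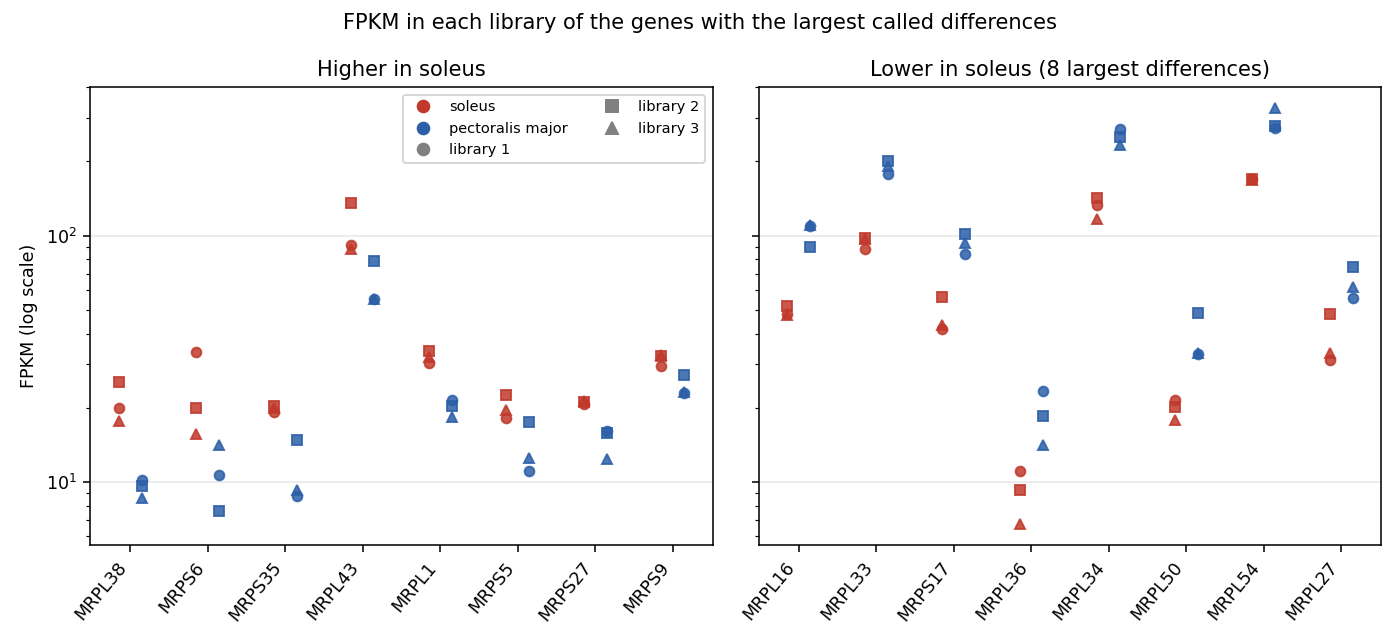
FPKM on a log scale of the 8 genes called higher in soleus (left) and of the 8 with the largest called differences below it (right), with 1 point for each library, soleus in red and pectoralis major in blue, and circle, square and triangle for libraries 1, 2 and 3. The red and blue points of a gene do not overlap, and in MRPL43 and MRPL27 the square of library 2 is the highest in both muscles.

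Of the 26 small subunit genes, 5 (19.2%) were higher in soleus, 5 (19.2%) were lower and 16 did not pass. The share of lower genes was close to the 17.4% of all tested genes, and the share of higher genes was below their 40.0%. With totals without the mitochondrially encoded genes, 9 (34.6%, against 52.3% of all tested genes) were higher and 3 (11.5%, against 11.98%) lower. With median-ratio scaling 14 (53.8%, against 29.5%) were lower. The small subunit genes had a median difference of -0.11 as deposited, 0.11 with totals without the mitochondrially encoded genes and -0.48 with median-ratio scaling. Relative to all tested genes these medians were -0.37, -0.34 and -0.44, and with quantile normalization the relative median was only -0.07, with 14 of the 26 genes below the median of all tested genes. Their sum as deposited was 1026 ± 61.4 FPKM in soleus and 1142 ± 36.0 FPKM in pectoralis major (SD, n = 3 each), also without overlap. Whether the small and large subunits differed from each other was not tested.

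MRPS6, the counterpart of bacterial S6, had the widest spread of the higher genes, with 33.6, 20.0 and 15.6 FPKM in soleus and 10.6, 7.61 and 14.1 FPKM in pectoralis major. Soleus library 1 stood far above the other 2, and the lowest soleus value was close to the highest of pectoralis major. The difference of 1.00 ± 0.29 passed (limma, adjusted p = 0.0169). Without soleus library 1 it was 0.70 and did not pass (limma, adjusted p = 0.0516), and without pectoralis major library 2 it was 0.79 (limma, adjusted p = 0.0511). MRPS6 overlaps SLC5A3, a myo-inositol transporter gene, at 1.29 ± 0.647 FPKM in soleus and 0.299 ± 0.0845 FPKM in pectoralis major (SD, n = 3 each).

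MRPS35 and MRPS27 have no bacterial counterpart, and MRPS27 is a pentatricopeptide repeat protein. MRPS35 had 19.1, 20.4 and 19.9 FPKM in soleus and 8.76, 14.8 and 9.30 FPKM in pectoralis major, a difference of 0.83 ± 0.19 (limma, adjusted p = 0.00559). MRPS27 had 20.7, 21.2 and 21.2 FPKM in soleus and 16.1, 15.8 and 12.4 FPKM in pectoralis major, a difference of 0.49 ± 0.14 (limma, adjusted p = 0.0139). In both genes the soleus libraries were nearly equal and all above pectoralis major. MRPS27 overlaps PTCD2, which did not pass (0.21, limma, adjusted p = 0.301).

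MRPS5 and MRPS9 are counterparts of bacterial S5 and S9. MRPS5 had 18.1, 22.6 and 19.6 FPKM in soleus and 11.0, 17.4 and 12.5 FPKM in pectoralis major. Library 2 was the highest in both muscles, which stood close without overlap, and the difference was 0.55 ± 0.18 (limma, adjusted p = 0.0279). MRPS9 had 29.5, 32.4 and 32.8 FPKM in soleus and 22.9, 27.0 and 23.1 FPKM in pectoralis major. Its difference of 0.36 ± 0.12 (limma, adjusted p = 0.0341) was the smallest of the higher genes, and it turned to -0.01 with median-ratio scaling. MRPS5 did not pass without soleus library 2 or 3 or pectoralis major library 1 or 3 (limma, adjusted p = 0.0618 to 0.0945). MRPS9 did not pass when any 1 soleus library, or pectoralis major library 1 or 3, was left out (limma, adjusted p = 0.0508 to 0.106). With median-ratio scaling, none of the 5 higher small subunit genes passed, with differences of -0.01 to 0.64 and adjusted p-values of 0.0601 to 0.951 (limma).

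Of the lower small subunit genes, MRPS17, the counterpart of bacterial S17, had 41.7, 56.3 and 43.3 FPKM in soleus and 84.2, 101 and 93.0 FPKM in pectoralis major. Library 2 was again the highest of each muscle, with a wide gap between muscles, and the difference was -0.97 ± 0.15 (limma, adjusted p = 0.000936). MRPS18A, which in mammals sits in the large subunit despite its name, had a difference of -0.76, MRPS26 of -0.70, MRPS14 of -0.44 and MRPS16 of -0.42. MRPS14 did not pass without soleus library 2 or 3, with an adjusted p up to 0.0554 (limma). MRPS16 did not pass without soleus library 2 or 3 or pectoralis major library 1 or 3, with an adjusted p up to 0.102 (limma). MRPS14 overlaps CACYBP, which did not pass (-0.06), and MRPS16 overlaps SLC45A1, which was higher in soleus (0.36, limma, adjusted p = 0.0435).

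MRPS30, another gene whose product mammals place in the large subunit, was the gene nearest the threshold among those that missed it. It had 8.60, 9.09 and 7.93 FPKM in soleus and 4.91, 7.52 and 6.28 FPKM in pectoralis major. The muscles did not overlap, and the difference of 0.41 ± 0.16 had an adjusted p of 0.0514 (limma), or 0.0303 with the library number as a block. MRPS36, which in mammals belongs to the 2-oxoglutarate dehydrogenase complex and not to the ribosome, did not pass (0.26 ± 0.15, limma, adjusted p = 0.161). It stood at 29.4, 31.9 and 26.6 FPKM in soleus and at 21.8, 29.0 and 22.4 FPKM in pectoralis major, with overlap.

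Evolutionary origin was set against the calls as well. Of 42 genes with a bacterial counterpart, 15 (35.7%) were lower and 4 (9.52%) higher, with a median difference of -0.20. Of 27 genes found only in mitochondria, 6 (22.2%) were lower and 4 (14.8%) higher, with a median of -0.17. Over all tested genes 17.4% were lower and 40.0% higher, so as deposited the share of lower genes in the second class was near that background. With median-ratio scaling the order of the classes was reversed. Lower were then 24 (57.1%) of the first class and 19 (70.4%) of the second, against 29.5% of all tested genes. MRPL55 and MRPS36 were put in neither class. With totals without the mitochondrially encoded genes, the medians were 0.02 and 0.04, and with median-ratio scaling they were -0.55 and -0.54. The classes had nearly the same medians under each of these scalings, and their difference was not tested.

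Gene length moved with the calls. The 71 genes had a median length of 1101 bases (366 to 5439) and all tested genes one of 3235 bases, inferred from the spacing of FPKM values. The 8 higher genes had a median length of 1446 bases, the 21 lower genes 854 bases and the rest 1114.5 bases. Of the 31 genes under 1000 bases, 13 (41.9%) were lower and 1 was higher (MRPL43), while of the 769 tested genes of that length 20.2% were lower and 31.1% higher. Of the 40 genes of 1000 bases or more, 8 were lower and 7 higher, against 17.1% lower and 40.7% higher of 8847 tested genes of that length. The median difference was -0.24 for the shorter and -0.11 for the longer genes, against 0.18 and 0.27 for tested genes of the same lengths. Across the 71 genes, length and difference correlated with rho = 0.25, and across the 9616 tested genes with rho = 0.11, both as descriptions. The part of length in the calls was not tested further.

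In the gene table of a later assembly, 22 of the 71 genes overlap another gene that was measured, among them 4 of the 8 higher, 5 of the 21 lower and 13 of the 42 others. Values of these genes are uncertain to the extent that reads of the partner were counted with them. Only MRPS11 and MRPL46 are next to each other among protein-coding genes. Their differences were -0.15 and -0.11, and neither passed (limma, adjusted p = 0.275 and 0.501).

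The library number was looked at beside the muscle. Equal numbers deviated together from their muscle's mean. In a fit with the number as a block, the number itself passed for 2 of the 71 genes, MRPL9 and MRPL15. This share of 2.82% was near the 1.63% of all tested genes. MRPL9, the counterpart of bacterial L9, had 3.37, 0.541 and 2.66 FPKM in soleus and 4.38, 1.22 and 4.31 FPKM in pectoralis major, from 23 to 174 fragments. Library 2 was by far the lowest of both muscles. On the log2(FPKM + 1) scale, number 2 lay at -1.39 relative to number 1 (limma, adjusted p of the number = 0.00389). MRPL15, the counterpart of bacterial L15, had 40.9, 75.5 and 50.7 FPKM in soleus and 24.4, 60.7 and 33.9 FPKM in pectoralis major. Here library 2 was the highest of both muscles, 1.07 above number 1 (limma, adjusted p of the number = 0.01999).

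Between muscles, both genes overlapped, and neither passed without the block, with differences of -0.45 ± 0.44 for MRPL9 (limma, adjusted p = 0.401) and 0.53 ± 0.33 for MRPL15 (limma, adjusted p = 0.191). Within each number, MRPL9 was lower and MRPL15 higher in soleus, and with the block both passed (limma, adjusted p = 0.0133 and 0.00478). Without soleus library 2, the unblocked difference of MRPL9 was 0.00. MRPL55, with 14.4, 21.4 and 25.9 FPKM in soleus and 18.1, 36.4 and 29.1 FPKM in pectoralis major, likewise passed only with the block (-0.40, limma, adjusted p = 0.235 without and 0.0307 with it). What equal numbers share, such as a bird or a preparation, is not given in the labels.

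**Figure D3:**
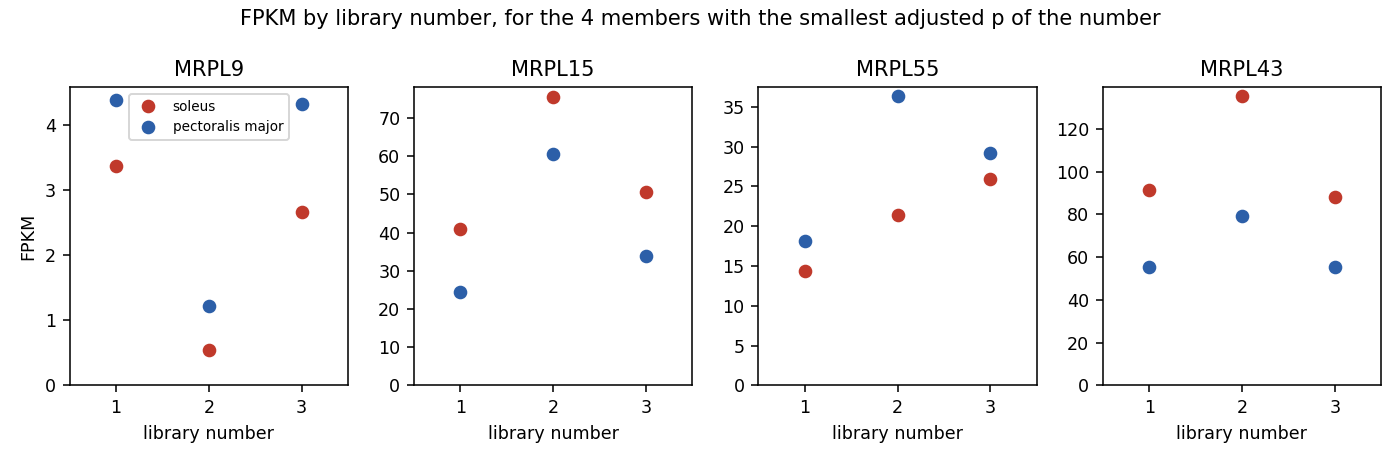
FPKM of MRPL9, MRPL15, MRPL55 and MRPL43, the 4 mitochondrial ribosomal protein genes with the smallest adjusted p of the library number, against the number of the library, soleus in red and pectoralis major in blue, 1 point per library. MRPL9 is lowest and MRPL15 and MRPL43 are highest in library 2 of both muscles, and within each number the muscles keep their order.

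The products and the other parts of mitochondrial translation were compared with the ribosomal protein genes. All 13 mitochondrially encoded protein genes, which the mitochondrial ribosome translates, were higher in soleus, against 40.0% of all tested genes. Their median difference was 1.25, against 0.26. With median-ratio scaling the median was 0.86, and 10 of the 13 (76.9%, against 21.1% of all tested genes) were higher. ATP8, ND3 and ND6 did not pass on that scale (limma, adjusted p = 0.0608, 0.168 and 0.248). The 13 genes summed to 222552 ± 23654 FPKM in soleus and 86598 ± 9261 FPKM in pectoralis major (SD, n = 3 each). For each FPKM of mitochondrial ribosomal protein genes there were 64.5, 56.5 and 76.6 FPKM of mitochondrially encoded protein genes in soleus and 24.1, 18.3 and 21.9 FPKM in pectoralis major. This ratio, which does not depend on the library total, was higher in every soleus library. The 2 sets of transcripts were captured and measured in the same libraries, and how library preparation treats mitochondrial transcripts was not tested.

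Cytosolic ribosomal protein genes, which serve translation of nuclear messages, had more higher than lower genes as deposited. Of 65, 37 (56.9%, against 40.0% of all tested genes) were higher in soleus and 1 (RPS28, 1.54%, against 17.4%) was lower, with a median difference of 0.43. With median-ratio scaling that median was 0.05. On that scale 3 (4.62%, against 21.1% of all tested genes) were higher and 5 (7.69%, against 29.5%) lower, so few were called either way. Relative to all tested genes it lay at 0.18 as deposited and at 0.09 with median-ratio scaling. Their sum was 15.8, 17.2 and 16.3 times that of the mitochondrial ribosomal protein genes in soleus and 9.80, 10.5 and 11.3 times in pectoralis major, higher in every soleus library. RPL3, a core protein of the large cytosolic subunit, had the largest difference of the list, 1.82.

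**Figure D4:**
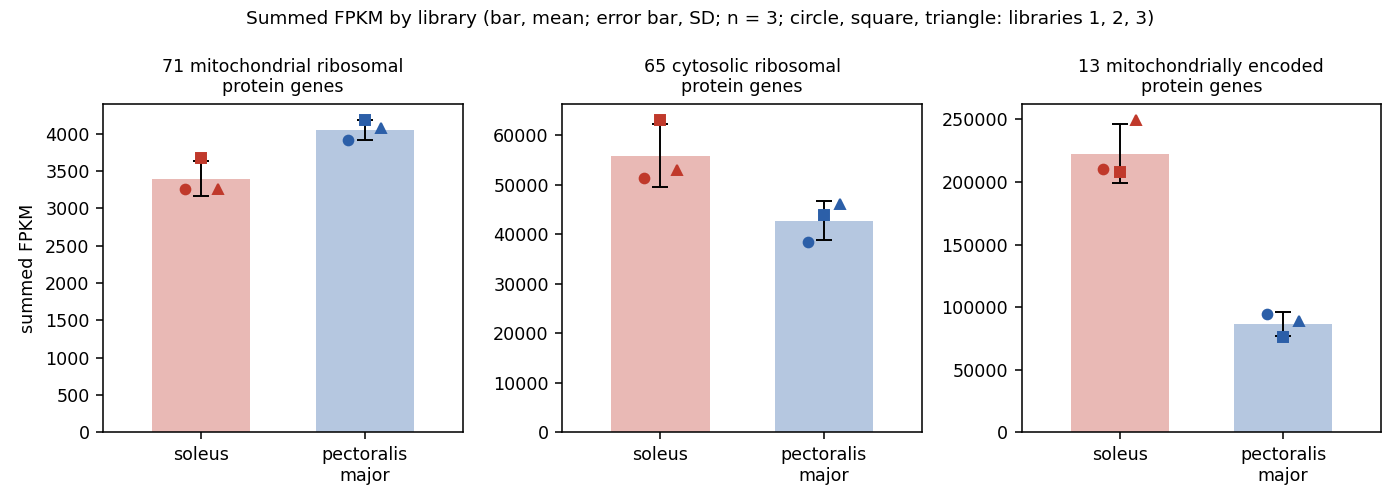
Summed FPKM per library of the 71 mitochondrial ribosomal protein genes, the 65 cytosolic ribosomal protein genes and the 13 mitochondrially encoded protein genes, with bars for the mean, error bars for the SD (n = 3) and circle, square and triangle for libraries 1, 2 and 3. The first sum is lower in soleus (3399 against 4055 FPKM on average), and the other 2 are higher there.

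Proteins of the mitochondrial ribosome that carry other names were measured too. Of 5 measured, CHCHD1 and AURKAIP1, parts of the small subunit, and GADD45GIP1, part of the large subunit, were lower in soleus, and DAP3 and PTCD3 did not pass. These shares were 60.0% lower and 0% higher, against 17.4% and 40.0% of all tested genes. CHCHD1 had 11.2, 15.0 and 14.6 FPKM in soleus and 30.6, 30.7 and 30.6 FPKM in pectoralis major, with a difference of -1.13 ± 0.14 (limma, adjusted p = 0.000313). AURKAIP1 had 25.1, 21.2 and 18.4 FPKM against 43.7, 41.6 and 42.4 FPKM, a difference of -0.96 ± 0.14 (limma, adjusted p = 0.000701). Neither gene overlapped between muscles. GADD45GIP1 differed by -0.61 ± 0.12 (limma, adjusted p = 0.00312).

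Assembly and rRNA modification factors of the mitochondrial ribosome mostly did not pass the test, with 5 of 22 lower (22.7%, near the 17.4% of all tested genes) and 1 higher (4.55%, against 40.0%) and a median difference of -0.06. With totals without the mitochondrially encoded genes, 3 (13.6%, against 52.3% of all tested genes) were higher and 2 (9.09%, against 11.98%) lower. The median was then 0.15, against 0.45 over all tested genes. With median-ratio scaling 9 (40.9%, against 29.5%) were lower and DHX30 did not pass. On that scale the median was -0.38, against -0.04. With the library number as a block, 8 (36.4%, against 19.5%) were lower and 2 (9.09%, against 43.8%) higher. Among the lower were MRM1, which methylates the large rRNA, at -0.98 ± 0.19 (limma, adjusted p = 0.00281), and MALSU1, which keeps the subunits apart during assembly, at -0.67 ± 0.13 (limma, adjusted p = 0.00286). The GTPases MTG2 and NOA1 were lower at -0.57 and -0.54, and FASTKD2, an RNA-binding protein of RNA granules, at -0.43. DHX30, an RNA helicase, was higher (0.46 ± 0.13, limma, adjusted p = 0.0162). GTPBP10 varied with the library number (limma, adjusted p of the number = 0.0254), with 22.6, 8.87 and 9.98 FPKM in soleus and 19.4, 9.75 and 12.5 FPKM in pectoralis major, with library 1 the highest of both.

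Translation factors and aminoacyl-tRNA synthetases of the mitochondrion are needed at the same ribosome. Of 14 genes measured for initiation, elongation, release and related steps, 3 were lower (21.4%, near the 17.4% of all tested genes) and 2 higher (14.3%, against 40.0%) in soleus, with a median difference of -0.01. With totals without the mitochondrially encoded genes, 4 (28.6%, against 52.3% of all tested genes) were higher and 1 (7.14%, against 11.98%) lower. With median-ratio scaling 6 (42.9%, against 29.5%) were lower. The initiation factors MTIF3 and MTIF2 were lower, at -0.79 ± 0.16 (limma, adjusted p = 0.00335) and -0.51 ± 0.14 (limma, adjusted p = 0.0134), and so was a gene listed as MRRFP1, matched to the recycling factor by synonym (-0.45). The release factor MTRF1L and the elongation factor GUF1 were higher, at 0.61 and 0.39, but neither passed with median-ratio scaling (limma, adjusted p = 0.0629 and 0.172). GUF1, 1 of the 2 higher genes, met the filter on low values through soleus. Its levels were near the filter's 1 FPKM, so its call is weak. SLIRP, which holds mitochondrial messages together with LRPPRC, had the highest level of the list and did not pass, with 101.6 ± 10.5 FPKM in soleus and 101.8 ± 9.42 FPKM in pectoralis major (SD, n = 3 each). Of 18 synthetase and amidotransferase genes, 7 (38.9%, near the 40.0% of all tested genes) were higher, led by AARS2 (0.75), MARS2 (0.73), YARS2 (0.66) and TARS2 (0.59), and the other 11 did not pass. Their median was 0.23, close to the 0.26 of all tested genes. With median-ratio scaling 2 (11.1%, against 21.1% of all tested genes) were higher and 3 (16.7%, against 29.5%) lower. Among the 7 was RARS2, at 1.29, 2.00 and 1.39 FPKM in soleus and 0.676, 1.06 and 0.869 FPKM in pectoralis major. RARS2 too met the filter on low values through soleus, so its call is weak.

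**Figure D5:**
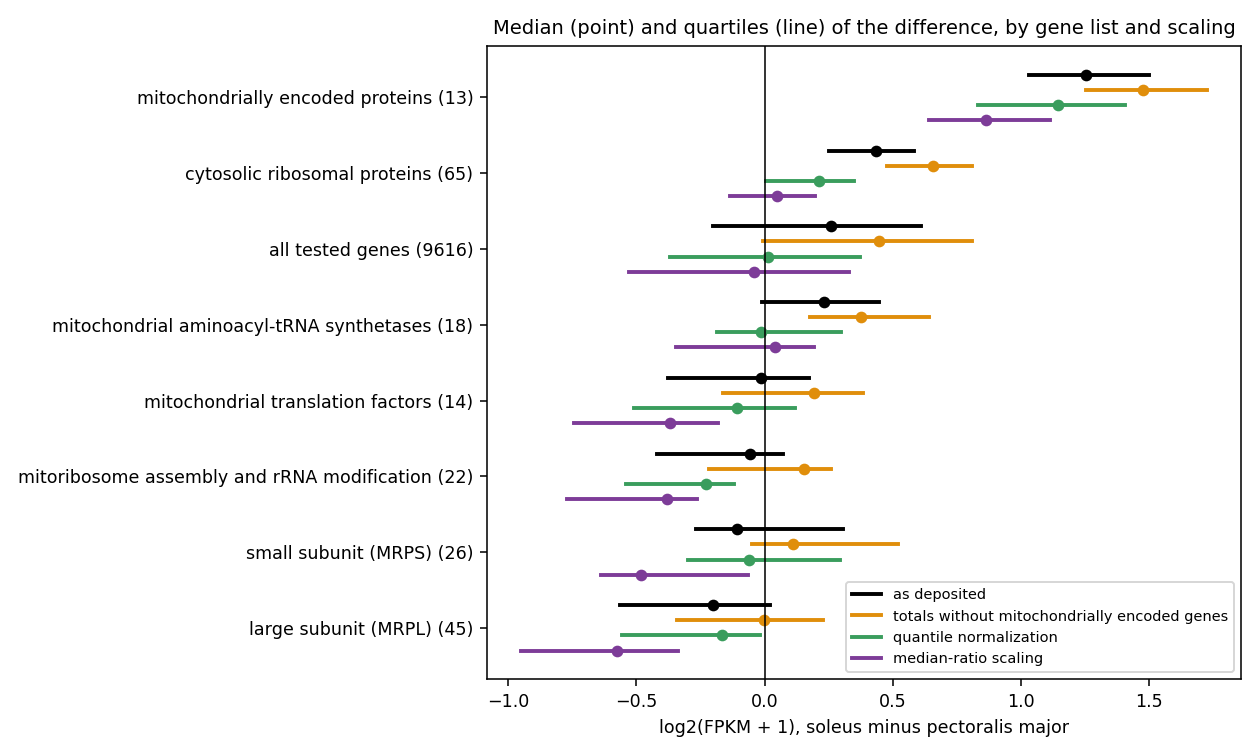
Median (point) and quartiles (line) of the difference in log2(FPKM + 1), soleus minus pectoralis major, for 7 gene lists and for all 9616 tested genes, with the number of tested genes in brackets and 1 colour for each of 4 library scalings. The medians of the large and small subunit genes lie left of that of all tested genes under each scaling. With quantile normalization the small subunit median lies only at -0.07 relative to it. The place of these medians relative to 0 depends on the scaling.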

How the data were processed

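RNA sequencing of 6 chicken muscle libraries was used, 3 of soleus and 3 of pectoralis major. Per the labels' protocols, TRIzol was used for RNA and the VAHTS Universal V6 kit for libraries. HISAT2, HTSeq, Cufflinks, R 3.2.0 and build GRCg6a are named in the submitters' processing notes, while other versions and whether strand was used were not found in any label. The authors deposited FPKM values for 18239 genes in 1 table. Whole fragments worked out from the FPKM steps fitted 100.0% of 94897 nonzero values to a relative 1e-06, which gave the library totals and gene lengths. The main test was limma 3.58.1 (R 4.3.3, variance trend, two-sided) on log2(FPKM + 1), keeping genes that reached 1 FPKM in 3 or more of 6 libraries. Tables and figures were made with Python 3.11.15, numpy 2.4.6, pandas 2.3.3, scipy 1.17.1 and matplotlib 3.10.9, and the scripts were tested on simulated data.

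Equal library numbers were checked for pairing. Deviations from the muscle means correlated across tested genes at 0.40, 0.45 and 0.37 for equal numbers and at -0.30 to -0.13 for unequal ones. Since deviations within a muscle cancel out, positive values for equal numbers entail negative ones among unequal numbers. The labels do not say what a number marks, so the main test was unpaired and the block was used as an alternative. Named in full were the 8 called genes with the largest difference in each direction, the 3 highest and 3 lowest in level and the 2 on either side of the threshold, and in related lists up to 4 called genes, the gene highest in level and those behind any count up to 5. The 71 genes and the related lists were chosen with earlier results of these data known, and MRPL15, MRPL55, MRPS36, MRPL46, MRPS11 and GTPBP10 were named after their values were seen. Related genes were matched by symbol or RefSeq synonym, using a table of assembly GRCg7b, not the files' build. It also supplied the overlaps, and no coordinates are given. Alternatives were pseudocounts, filters, scalings, limma-voom on whole fragments, the block and leaving out each library.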

Additional observations from a re-analysis of the deposited data

How the results depend on the processing

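Of the mitochondrial ribosomal protein genes, 8 were higher and 21 lower as reported. With median-ratio scaling 1 was higher and 44 lower (median -0.55), and with totals without the mitochondrially encoded genes 16 and 12 (median 0.032). Without the 50 most abundant genes 7 of the 71 were higher and 23 lower (median -0.27), against 3446 and 1943 of all 9616 tested genes. With no filter on low values, where all 18239 genes are tested, 5 of the 71 were higher and 17 lower, against 4326 and 1564 of the 18239. MRPL38 was kept among the higher genes and 12 of the 21 lower genes were kept in all 15 planned settings. The replicate block gave 10 higher and 24 lower, with all 8 and 21 kept and MRPL15, MRPS30, MRPL53, MRPL55 and MRPL9 added, and it changed no other call of the 71 genes. Combined with totals without the mitochondrially encoded genes, the block gave 20 higher and 16 lower (median 0.032), against 5443 and 1328 of all 9616 tested genes. Combined with median-ratio scaling, it gave 4 higher and 47 lower (median -0.55), against 2376 and 3157 of the 9616. Both combinations were chosen after seeing the data. Leaving out each library in turn gave 5 to 10 higher and 15 to 19 lower, with a median of -0.21 to -0.12. Over all tested genes, the 3844 higher became 1639 at a mean FPKM of at least 5, where fewer genes are tested, 2026 with median-ratio scaling, 2244 with quantile normalization and 2376 with median-ratio scaling and the block, and 3157 to 3597 without 1 library. The 1670 lower became 2837 with median-ratio scaling, 3157 with that and the block, and 1311 to 1678 without 1 library. MRPS9 turned to -0.011 with median-ratio scaling, with and without the block. MRPL2 turned to -0.21 with median-ratio scaling, with and without the block, and to -0.018 with quantile normalization, and MRPL9 ranged from -0.878 without pectoralis major library 2 to 0.0046 without soleus library 2. The causes were not tested. Depth limits MRPL9 most, at 23 fragments in its lowest library.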

Other observations

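Genes for the upkeep and transcription of mitochondrial DNA were called in shares near those of all tested genes. Of 19 tested, 6 (31.6%, against 40.0%) were higher and 3 (15.8%, against 17.4%) lower in soleus, with a median difference of 0.08 against 0.26 over all tested genes. TFAM, which packages mitochondrial DNA and starts its transcription, had 33.6 ± 0.888 FPKM in soleus and 21.7 ± 0.450 FPKM in pectoralis major (SD, n = 3 each), a difference of 0.61 ± 0.11 (limma, adjusted p = 0.00210). MTERF2 (0.77) and DGUOK (0.73), a deoxynucleoside kinase, had larger differences, and TK2, POLG2 and SUPV3L1 were higher by 0.49, 0.45 and 0.44. MTERF2, which is counted among the 6 higher genes, met the filter on low values through soleus, so its call is weak. RRM2B, a ribonucleotide reductase subunit, was lower (-0.82 ± 0.13, limma, adjusted p = 0.000990), as were C10orf2, the helicase also called Twinkle (-0.49), and SSBP1, the single-strand binding protein (-0.37). With median-ratio scaling the median was -0.25, against -0.04 over all tested genes, and 7 (36.8%, against 29.5%) were lower. The 6 higher calls were lost on that scale (limma, adjusted p = 0.0539 to 0.554), where 21.1% of all tested genes were higher.

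Among regulators known in mammals to drive mitochondrial genes, PPARGC1A, a coactivator of mitochondrial biogenesis, had 1.81, 1.75 and 2.74 FPKM in soleus and 0.437, 0.404 and 0.388 FPKM in pectoralis major, with a difference of 1.12 ± 0.14 (limma, adjusted p = 0.000296). The receptor ESRRB (1.02), the coactivator PPRC1 (0.62) and GABPB1 (0.32) were higher too. NRF1 was lower, with 0.746, 0.679 and 0.854 FPKM in soleus and 1.21, 1.22 and 1.75 FPKM in pectoralis major and a difference of -0.44 ± 0.12 (limma, adjusted p = 0.0154). PPARGC1A and NRF1 did not overlap between muscles, but each passed the filter on low values only through the muscle where it was higher. Both levels were near the filter's 1 FPKM, so these calls are weak and are given as descriptions. In all, 4 of 8 tested regulators (50.0%, against 40.0% of all tested genes) were higher and 1 (12.5%, against 17.4%) was lower. These counts include PPARGC1A and NRF1, and also PPRC1, which passed the filter only through soleus. The most abundant of them, GABPA at 11.6 FPKM and a gene listed as YY2 and matched to YY1 by synonym at 14.5 FPKM over the 6 libraries, did not pass, and neither did MYC (0.76, limma, adjusted p = 0.0529), which passed with the library number as a block (adjusted p = 0.00814). With median-ratio scaling 3 were higher and 2 lower, since GABPB1 did not pass (limma, adjusted p = 0.531) and the gene listed as YY2 was lower (-0.65).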
